A study of Mus musculus with 12 samples.

Results

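The collagen chain genes were described here in mouse astrocytes grown on brain sections. Members were all probe sets that the array annotation assigns to a single gene whose symbol is Col, a number, a and a number (Col1a1 to Col27a1). The rule found 82 probe sets for 42 genes, out of 45037 probe sets for 18193 genes. The rule itself uses symbols and no measured value, but the family was picked with earlier results of these data known. Of these genes, 15 had 1 probe set and 27 had several, which were averaged for each gene.

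Collagens are mostly secreted proteins in which 3 chains wind into a triple helix. A molecule built of different chains is made only where those chains are produced together. Fibrillar collagens build the fibres of connective tissue, type IV collagens build the sheet-like network of basement membranes, and the fibril-associated collagens (FACIT) decorate fibre surfaces. In the brain, fibrillar collagens belong mainly to the meninges and vessel walls, while type IV collagen lies in the vascular basement membrane that astrocyte endfeet contact.

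Cultured astrocytes carrying an enhanced green fluorescent protein (eGFP) transgene, from C57Bl/6j mice, were placed for 22 h on brain sections and then picked by suction after partial trypsin release. Sections came from APdE9 mice, an Alzheimer's disease model with a chimeric mouse/human APPSwe and a PS1-dE9 transgene, each under a mouse prion protein promoter, or from wild-type littermates. The design had 4 groups of 3 arrays: neonatal astrocytes (3 days by the treatment label, 2 days by the culture protocol) on wild-type sections, neonatal astrocytes on APdE9 sections, adult astrocytes (6 to 8 weeks) on wild-type sections and adult astrocytes on APdE9 sections. The astrocytes themselves came from wild-type and eGFP mice in all groups, not from APdE9 mice, and samples were pooled (n = 3) before RNA isolation. The adult cultures had a Percoll step and a DMEM/F12 medium supplemented with G5, and the neonatal cultures had neither and used DMEM, so age and culture method cannot be told apart. The age of the section donors was not given in the sources used here.

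Values were Affymetrix log2 signals from which the median of the 12 arrays had been removed for each probe set. They show how a gene differed between arrays and carry no level, so genes were not compared with each other in level, and the astrocyte label could not be checked by level. Each comparison is a log2 difference ± standard error (SE) from limma with 3 arrays a group. A gene was called where its p-value, Benjamini-Hochberg adjusted over 18193 genes, was under 0.05. The labels call the arrays biological replicates, but each is a pool, so p-values measure the spread between these pools. Within-group correlations of arrays over all genes ran from 0.57 in neonatal astrocytes on wild-type sections to 0.884 in adult astrocytes on wild-type sections. In such bulk samples fewer cells of a type and less RNA per cell cannot be told apart.

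**Figure D1:**
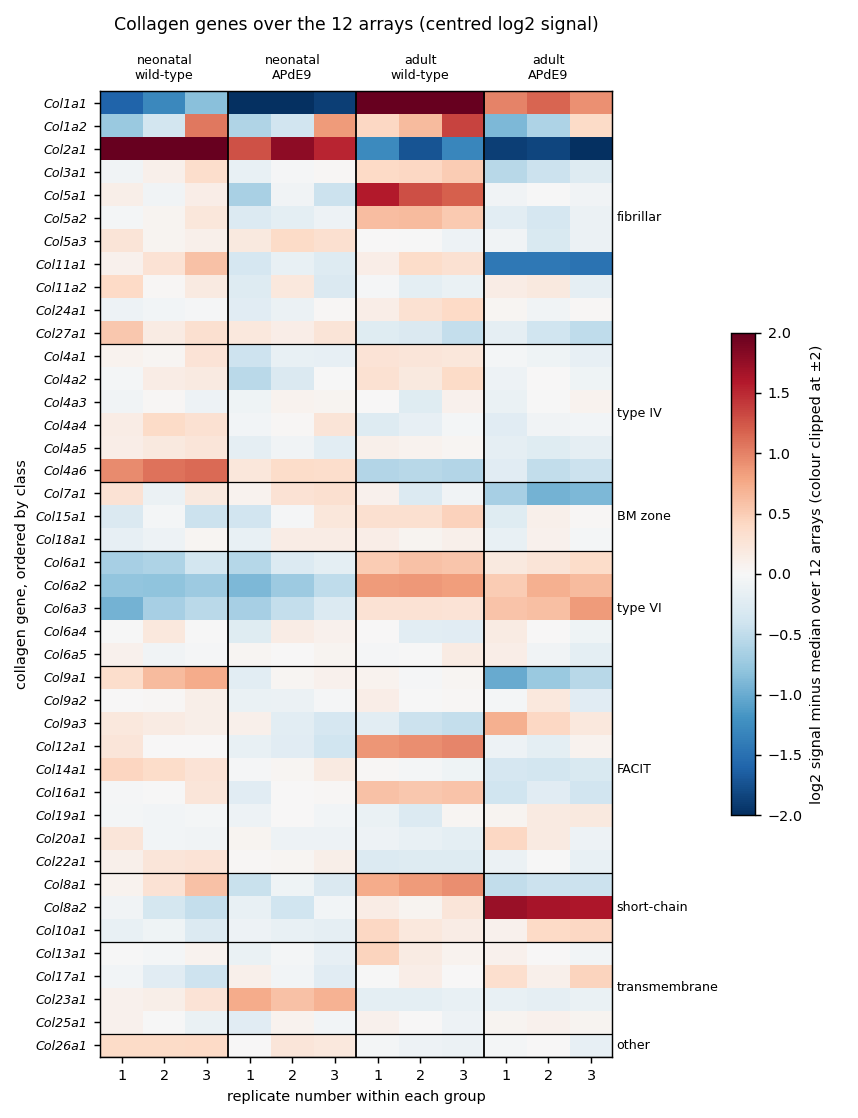
Centred log2 signal of the 42 collagen genes (rows, by class) on each of the 12 arrays (columns, 3 for each group); colour is clipped at 2 units in each direction. Col1a1 is low in all neonatal and high in all adult arrays, Col2a1 is the reverse, and Col8a2 stands out on the 3 arrays of adult astrocytes on APdE9 sections.

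The 42 genes were 11 fibrillar chains, 6 type IV chains, 3 further basement membrane zone chains (Col7a1, Col15a1 and Col18a1), 5 type VI chains, 9 FACIT chains, 3 short-chain network chains (Col8a1, Col8a2 and Col10a1), 4 transmembrane chains and Col26a1. Of the 42, 30 passed the test in at least 1 of 5 comparisons. The matching share of all genes was not counted, so this number has no baseline. In the age comparison on wild-type sections alone, 14.9% of all genes were called higher and 15.2% lower. The other 12 collagen genes were called in none: Col1a2, Col4a2, Col4a3, Col6a4, Col6a5, Col9a2, Col11a2, Col13a1, Col18a1, Col19a1, Col20a1 and Col25a1. Col25a1, the precursor of an amyloid plaque component, had section differences of -0.05 ± 0.09 in neonatal and 0.07 ± 0.09 in adult astrocytes. Its 95% intervals were -0.25 to 0.15 and -0.13 to 0.27.

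The promoters of the genes on which the section results turn are shown for reference. Of the 42 genes, 33 had an entry among the RefSeq promoters (GRCm38.p6), and those of Col1a1 and Col9a3 were not among them. The printed stretches are the bases within 250 before the transcription start that lie outside the annotated gene, 5′ to 3′ on the gene's strand. Capitals mark the letters TATAAA of the TATA box, the letters CCAAT of the box of that name and the letters GGGCGG of the GC box, searched on both strands. The first pair are fibrillar chains that fell together in adult astrocytes on APdE9 sections.
Col3a1 (chr1:45311288-45311537, plus strand): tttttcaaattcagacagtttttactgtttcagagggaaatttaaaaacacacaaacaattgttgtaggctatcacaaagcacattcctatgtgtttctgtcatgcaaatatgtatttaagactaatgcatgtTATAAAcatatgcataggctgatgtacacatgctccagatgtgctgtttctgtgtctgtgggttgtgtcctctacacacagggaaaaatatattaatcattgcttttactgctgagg
Col5a1 (chr2:27886175-27886380, plus strand): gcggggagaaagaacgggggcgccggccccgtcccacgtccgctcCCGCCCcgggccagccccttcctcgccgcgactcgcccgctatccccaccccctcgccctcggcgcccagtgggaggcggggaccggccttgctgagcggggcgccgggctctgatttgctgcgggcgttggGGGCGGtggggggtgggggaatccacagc
The next pair are the type VIII chains, which moved in opposite directions there.
Col8a1 (chr16:57754738-57754987, minus strand): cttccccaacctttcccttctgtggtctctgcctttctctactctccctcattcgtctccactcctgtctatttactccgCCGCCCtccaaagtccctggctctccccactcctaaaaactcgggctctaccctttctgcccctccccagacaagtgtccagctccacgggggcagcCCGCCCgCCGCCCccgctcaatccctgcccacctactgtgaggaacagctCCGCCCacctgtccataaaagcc
Col8a2 (chr4:126286544-126286793, plus strand): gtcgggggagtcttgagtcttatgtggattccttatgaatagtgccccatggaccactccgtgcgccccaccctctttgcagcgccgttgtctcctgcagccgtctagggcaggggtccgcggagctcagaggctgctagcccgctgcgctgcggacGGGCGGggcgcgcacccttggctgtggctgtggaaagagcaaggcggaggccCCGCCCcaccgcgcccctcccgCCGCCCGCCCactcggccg
The last pair are neighbouring type IV chains on opposite strands of the X chromosome, whose printed stretches do not overlap.
Col4a5 (chrX:141475169-141475369, plus strand): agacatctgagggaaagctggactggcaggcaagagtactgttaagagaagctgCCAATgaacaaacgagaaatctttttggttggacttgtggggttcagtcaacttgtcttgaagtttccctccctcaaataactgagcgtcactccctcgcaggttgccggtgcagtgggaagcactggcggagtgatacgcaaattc
Col4a6 (chrX:141474096-141474326, minus strand): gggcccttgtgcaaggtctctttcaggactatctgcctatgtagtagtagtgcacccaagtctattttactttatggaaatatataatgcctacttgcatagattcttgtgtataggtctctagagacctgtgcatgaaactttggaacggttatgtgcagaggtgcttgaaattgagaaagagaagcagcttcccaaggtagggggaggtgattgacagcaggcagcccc

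In these stretches Col3a1 held 1 TATAAA and no GGGCGG, with 35.2% G and C. Col5a1 held 2 GGGCGG at 77.7% G and C, in a shorter stretch of 206 bases. Col8a1 and Col8a2 held 4 GGGCGG each, and the pair nearest the start of Col8a2 overlap. Col4a5 held 1 CCAAT, and the printed stretch of Col4a6 held none of the 3 motifs. Over all 32851 RefSeq windows of 250 bases, TATAAA occurred in 12.4%, CCAAT in 33.8% and GGGCGG in 32.7%. The 33 collagen genes with an entry had 36 such windows, of which 5, 13 and 21 held these letters. Counted by gene, the numbers were 5, 13 and 20 of the 33. These are descriptions of letters in a window and say nothing about binding, and their part in the section differences was not tested.

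In neonatal astrocytes, 7 collagen genes fell and 1 rose on APdE9 against wild-type sections. The 7 were the fibrillar chains Col1a1 and Col11a1, the type IV chains Col4a1, Col4a5 and Col4a6, the FACIT chain Col9a1 and the short-chain Col8a1, and Col23a1 rose. The share of collagen genes called lower was 16.7%, against 2.55% of all genes tested, and the share called higher 2.38%, against 1.21%. Their median difference was -0.14, against 0.00 for all genes. All 3 arrays on APdE9 sections lay below all 3 on wild-type sections for 15 collagen genes (35.7%, against 10.4% of all genes), and above them for 1 (2.38%, against 7.31%).

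Col1a1, the main chain of type I collagen, had centred signals of -1.60, -1.28 and -0.84 on wild-type and -2.25, -2.03 and -1.89 on APdE9 sections. The groups did not overlap, and the difference was -0.82 ± 0.16 (adjusted p = 0.0162), or 1.76-fold. Col11a1, a chain of type XI collagen that sits inside thin fibrils, measured 0.08, 0.29 and 0.58 on wild-type and -0.34, -0.15 and -0.26 on APdE9 sections, a difference of -0.57 ± 0.12 (adjusted p = 0.0172). Wild-type replicate 3 was the highest array for both genes. Both calls were lost without wild-type replicate 2 (adjusted p = 0.0636 for Col1a1 and 0.0687 for Col11a1) and without APdE9 replicate 1 (0.0703 and 0.0718). Col11a1 was also lost without APdE9 replicate 3 (0.0555). The other 9 fibrillar chains did not pass, though 10 of the 11 had negative differences. Col2a1, the main fibrillar chain of cartilage, differed by -0.76 ± 0.23 (adjusted p = 0.101).

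Col4a6 had the smallest adjusted p of the neonatal section comparison among collagens. It measured 0.94, 1.09 and 1.13 on wild-type and 0.23, 0.37 and 0.36 on APdE9 sections, with a wide gap between the groups. The difference was -0.74 ± 0.09 (adjusted p = 0.000861), or 1.67-fold, and each of its probe sets was called, as were 2% of all probe sets when fitted singly. Col4a5, its neighbour, measured 0.13, 0.20 and 0.25 and -0.18, -0.07 and -0.20, and fell by less (-0.34 ± 0.07, adjusted p = 0.0172). Col4a5 and Col4a6 lie on opposite strands of the X chromosome with starts 1343 bases apart.

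Col4a1 and Col4a2 encode the chains of the common type IV trimer and start 21 bases apart on opposite strands of chromosome 8. Col4a1 measured 0.07, 0.04 and 0.27 on wild-type and -0.41, -0.15 and -0.16 on APdE9 sections and fell by 0.37 (SE 0.09, adjusted p = 0.0435). Col4a2 had nearly the same difference, -0.38 ± 0.12, with a wider spread, and did not pass (adjusted p = 0.125). The Col4a1 call was lost whichever of the 12 arrays was left out (adjusted p = 0.0541 to 0.146). Col4a5 was lost without wild-type replicates 2 (0.0826) or 3 (0.065) and APdE9 replicates 1 (0.0598) or 3 (0.0649). Col4a3 and Col4a4, chains of the network of the kidney filter, differed by 0.07 ± 0.10 and -0.19 ± 0.10 and did not pass.

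Col23a1, a transmembrane collagen that is shed from the cell surface, was the only collagen gene called higher in neonatal astrocytes. It measured 0.08, 0.12 and 0.28 on wild-type and 0.75, 0.58 and 0.69 on APdE9 sections, a rise of 0.51 ± 0.08 (adjusted p = 0.00329). Col23a1 and Col4a6 were the only collagen calls of this comparison that held with each of the 12 arrays left out in turn.

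Col8a1, a short-chain collagen of vessel walls and of the cornea, measured 0.07, 0.29 and 0.58 and -0.44, -0.09 and -0.29, and fell by 0.59 (SE 0.12, adjusted p = 0.0218). Its call was lost without wild-type replicates 2 (0.0819) or 3 (0.064) and APdE9 replicates 1 (0.0896) or 3 (0.0645). Col9a1, a FACIT chain of cartilage, measured 0.36, 0.63 and 0.74 and -0.21, 0.04 and 0.09, and fell by 0.61 (SE 0.13, adjusted p = 0.0246). Its 2 probe sets disagreed, with differences of -1.11 and -0.10. The Col9a1 call was lost without wild-type replicates 2 (0.112) or 3 (0.0899) and APdE9 replicates 1 (0.101) or 2 (0.0584). Over the 12 left-out arrays, 1 to 7 collagen genes were called lower. The count was 1 without wild-type replicate 2 or APdE9 replicate 1, 3 without wild-type replicate 3 and 4 without APdE9 replicate 3.

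In adult astrocytes the APdE9 section was accompanied by lower fibrillar collagen signals. Of the 42 collagen genes, 14 fell (33.3%, against 9.4% of all genes tested) and 3 rose (7.14%, against 8.26%). The lower genes included 6 of the 11 fibrillar chains, and no fibrillar chain was called higher. The fibrillar median was -0.81, against -0.17 over the 42 collagen genes and 0.05 over all genes. Groups were fully separated downwards for 20 collagen genes (47.6%, against 15.7% of all genes) and upwards for 6 (14.3%, against 20.3%).

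**Figure D2:**
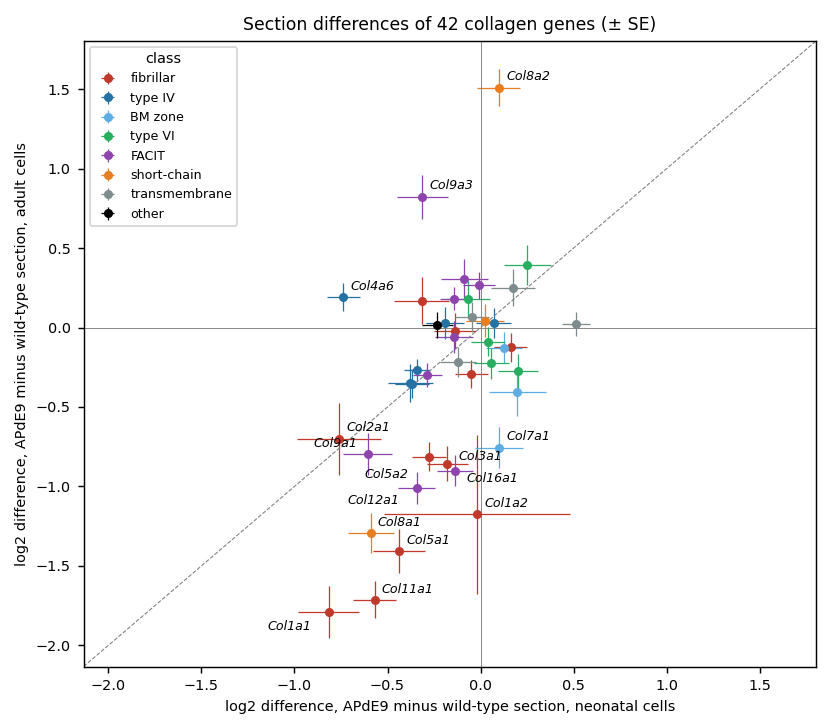
Section difference (APdE9 minus wild-type section, log2 ± SE) of each collagen gene in neonatal (horizontal) and adult (vertical) astrocytes, coloured by class; the dashed line marks equal differences. Fibrillar chains such as Col1a1, Col11a1 and Col5a1 lie below the line, at -1.79, -1.71 and -1.41 in adult astrocytes, and Col8a2 lies highest at 1.51.

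Col1a1 measured 2.78, 2.74 and 2.92 in adult astrocytes on wild-type and 0.99, 1.17 and 0.91 on APdE9 sections. All APdE9 arrays lay well below all wild-type arrays, and the difference was -1.79 ± 0.16 (adjusted p = 1.33e-05), or 3.46-fold. Both probe sets were called, at -2.12 and -1.46. Col11a1 measured 0.13, 0.37 and 0.30 and -1.43, -1.43 and -1.48, a difference of -1.71 ± 0.12 (adjusted p = 1.35e-06). The 3 APdE9 arrays of Col11a1 were almost equal and far below every other array of the study.

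Type V collagen controls fibril diameter and is built mainly from Col5a1 and Col5a2 chains. Col5a1 measured 1.59, 1.29 and 1.19 on wild-type and -0.08, -0.01 and -0.06 on APdE9 sections, and fell by 1.41 (SE 0.14, adjusted p = 2.5e-05), or 2.65-fold. Col5a2 measured 0.62, 0.63 and 0.53 and -0.21, -0.34 and -0.11, and fell by 0.81 (SE 0.09, adjusted p = 6.16e-05). Every probe set of these chains was called lower. Col5a3, the third type V chain, differed by -0.12 ± 0.09 and did not pass (adjusted p = 0.384).

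Col3a1, which forms type III fibrils of distensible tissues such as vessel walls, measured 0.40, 0.41 and 0.51 on wild-type and -0.56, -0.43 and -0.26 on APdE9 sections. The groups were fully separated and the difference was -0.86 ± 0.11 (adjusted p = 0.000218), with probe sets at -0.42 and -1.30. Col24a1, a minor fibrillar chain, fell by 0.29 (SE 0.09, adjusted p = 0.0428). That call was lost on leaving out 8 of the 12 arrays in turn (adjusted p = 0.0509 to 0.148). It held without neonatal wild-type replicate 1, neonatal APdE9 replicates 1 or 3, or adult wild-type replicate 1. Col2a1 differed by -0.70 ± 0.23 with separated groups (adjusted p = 0.0529), while Col11a2 (0.17 ± 0.15) and Col27a1 (-0.02 ± 0.11) did not separate.

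Col1a2 encodes the other chain of type I collagen, and its 3 probe sets behaved differently. Probe set 1423110_at measured 0.41, 0.39 and 0.30 in adult astrocytes on wild-type sections and -1.02, -0.92 and -0.69 on APdE9 sections, a difference of -1.24 ± 0.16 (limma adjusted p = 0.000265 over 45037 probe sets). Probe set 1450857_a_at fell by 0.41 (SE 0.10, adjusted p = 0.0185). Over all probe sets, 12.7% were called in this comparison. Probe set 1446326_at was highest on replicate 3 in every group, at 2.75, 2.59, 3.66 and 2.09, while the other 8 arrays ranged from -2.17 to 1.46. With the 3 averaged, Col1a2 differed by -1.18 ± 0.50 and did not pass (adjusted p = 0.134). With the median of the probe sets in place of the mean, Col1a2 passed (adjusted p = 0.00332).

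**Figure D3:**
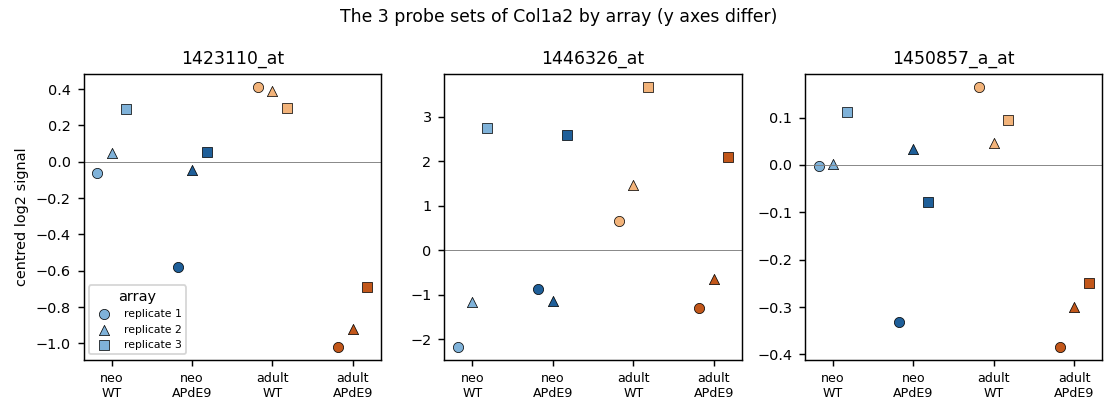
Centred log2 signal of the 3 Col1a2 probe sets on each array (symbols are replicates 1 to 3; vertical scales differ between panels). Replicate 3 is high in all 4 groups for 1446326_at only, between 2.09 and 3.66, and for 1423110_at the 3 adult APdE9 arrays are the lowest, between -1.02 and -0.69.

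The type VIII chains moved apart in adult astrocytes. Col8a1 measured 0.75, 0.86 and 0.93 on wild-type and -0.49, -0.43 and -0.43 on APdE9 sections, and fell by 1.29 (SE 0.12, adjusted p = 2.06e-05), or 2.45-fold. Col8a2 measured 0.15, 0.05 and 0.25 and 1.73, 1.64 and 1.61, a rise of 1.51 ± 0.12 (adjusted p = 3.51e-06), or 2.85-fold. All 3 probe sets of Col8a1 fell, and Col8a2 has a single probe set. Col8a2 was the highest on the 3 adult APdE9 arrays, above every other array of the study. Col10a1, the short-chain collagen of growth-plate cartilage, differed by 0.04 ± 0.10 and did not pass.

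Of the 9 FACIT chains, 4 fell (44.4%, against 9.4% of all genes) and 1 rose (11.1%, against 8.26%). Col12a1, which coats type I fibrils, measured 0.89, 0.94 and 0.98 on wild-type and -0.10, -0.20 and 0.07 on APdE9 sections, a difference of -1.01 ± 0.10 (adjusted p = 2.23e-05). Col16a1 measured 0.58, 0.54 and 0.57 and -0.40, -0.22 and -0.38, a difference of -0.90 ± 0.10 (adjusted p = 4.39e-05). Both were fully separated, although the 4 probe sets of Col12a1 ranged from -2.14 to -0.23 and only 2 of them were called. Col14a1 fell by 0.30 (SE 0.08, adjusted p = 0.0182) through 1 of its 3 probe sets. Its call was lost without adult wild-type replicates 1 (0.0663) or 2 (0.0577) or adult APdE9 replicate 2 (0.0638).

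The chains of type IX collagen, which together form 1 molecule in cartilage, did not move together. Col9a1 measured 0.08, -0.02 and 0.04 on wild-type and -1.01, -0.74 and -0.55 on APdE9 sections, and fell by 0.80 (SE 0.13, adjusted p = 0.00117). Its probe sets again disagreed, at -1.54 and -0.05. Col9a3 measured -0.21, -0.44 and -0.48 and 0.71, 0.42 and 0.21, a rise of 0.82 ± 0.14 (adjusted p = 0.00131) shared by all 3 of its probe sets. Col9a2 differed by -0.06 ± 0.10, with a 95% interval of -0.28 to 0.16.

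Of the 6 type IV chains, 2 fell in adult astrocytes on APdE9 sections (33.3%, against 9.4% of all genes). Col4a1 measured 0.28, 0.25 and 0.23 on wild-type and -0.04, -0.09 and -0.16 on APdE9 sections, and Col4a5 0.09, 0.06 and 0.04 and -0.18, -0.25 and -0.18. Col4a1 fell by 0.35 (SE 0.09, adjusted p = 0.0178) and Col4a5 by 0.27 (SE 0.07, adjusted p = 0.0185). The Col4a1 call was lost without adult wild-type replicates 1 (0.0561) or 2 (0.0543) or adult APdE9 replicates 2 (0.051) or 3 (0.0599). The Col4a5 call was lost without adult wild-type replicates 1 (0.0611) or 2 (0.057) or adult APdE9 replicate 2 (0.07). Col4a2 again matched Col4a1 in size (-0.35 ± 0.12) without passing (adjusted p = 0.0648). Col4a6, which had fallen in neonatal astrocytes, differed by 0.19 ± 0.09 (adjusted p = 0.164).

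Col7a1, the anchoring fibril chain of skin, measured 0.09, -0.27 and -0.07 on wild-type and -0.67, -0.94 and -0.90 on APdE9 sections, a difference of -0.76 ± 0.13 (adjusted p = 0.00151). The APdE9 arrays were the lowest of the study. The multiplexins Col15a1 and Col18a1, whose ends release endostatin-type fragments, differed by -0.41 ± 0.15 and -0.13 ± 0.10 and did not pass. Type VI collagen forms beaded filaments around cells. Of its 5 measured chains, only Col6a3 was called, with a rise of 0.39 ± 0.12 (adjusted p = 0.0472). That call was lost for 8 of the 12 left-out arrays (0.0566 to 0.15) and held without neonatal wild-type replicates 1 or 3 or neonatal APdE9 replicates 1 or 3. Col6a1 and Col6a2 differed by -0.28 ± 0.11 and -0.23 ± 0.10, with separated groups and adjusted p = 0.108 and 0.132. None of the 4 transmembrane chains was called.

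**Figure D4:**
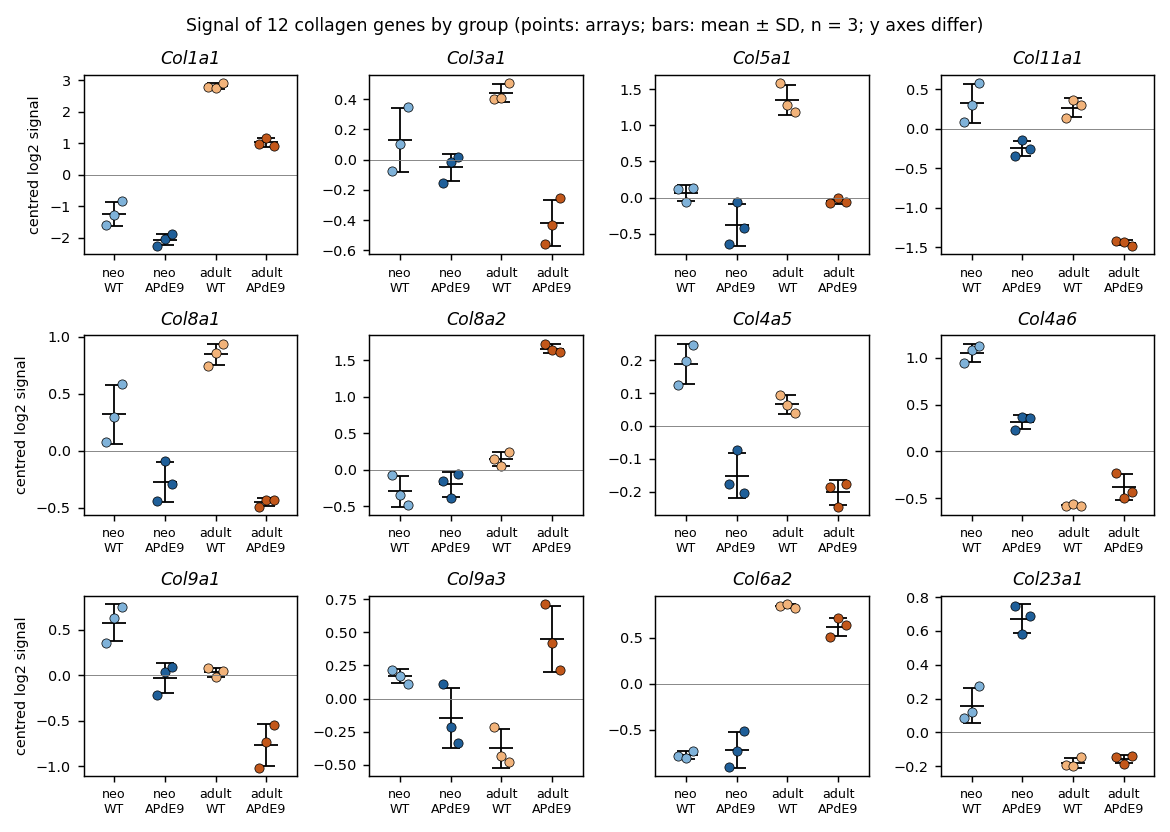
Centred log2 signal of 12 collagen genes on each array (points) with group means and SD (bars, n = 3); vertical scales differ between panels. In adult astrocytes Col1a1, Col3a1, Col5a1, Col11a1 and Col8a1 are lower on APdE9 sections, Col8a2 and Col9a3 are higher, and Col6a2 separates by age.

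Whether the section difference itself depended on cell age was tested as the adult minus the neonatal section difference, on non-overlapping arrays. This was called lower for 10 collagen genes (23.8%, against 4.88% of all genes) and higher for 3 (7.14%, against 5.19%). The collagen median was -0.03, against 0.04 for all genes, and the fibrillar median was -0.54. Of the 11 fibrillar chains, 5 were called lower: Col11a1 (-1.14 ± 0.16, adjusted p = 0.001), Col5a1 (-0.97 ± 0.20, 0.00885), Col1a1 (-0.97 ± 0.23, 0.0193), Col3a1 (-0.68 ± 0.16, 0.0184) and Col5a2 (-0.54 ± 0.13, 0.02). Col1a1 and Col11a1 were thus called lower on APdE9 sections at both ages, with a larger fall in adult cells.

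The other genes called lower were Col7a1, Col16a1, Col12a1, Col8a1 and Col23a1. The last, Col23a1, had its rise in neonatal cells, and in adult cells it measured -0.19, -0.20 and -0.15 on wild-type and -0.15, -0.19 and -0.14 on APdE9 sections, with overlapping groups. The genes called higher were Col8a2 (1.41 ± 0.16, adjusted p = 0.000231), Col9a3 (1.14 ± 0.20, 0.00325) and Col4a6 (0.93 ± 0.12, 0.000644). Col4a1 and Col4a5 fell by similar amounts at both ages, and the difference between ages was 0.02 ± 0.13 (95% interval -0.26 to 0.30) for Col4a1 and 0.07 ± 0.10 (-0.14 to 0.29) for Col4a5.

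Of these 13 calls, 10 held for each left-out array. Col1a1 was lost without neonatal wild-type replicate 2 (adjusted p = 0.0504). After quantile normalization of the arrays its difference between ages was -0.39 (adjusted p = 0.603). Col5a2 was lost without neonatal wild-type replicate 2 (0.0539), adult wild-type replicate 2 (0.0538) or adult APdE9 replicate 2 (0.0543). Col8a1 was lost for 6 of the 12 left-out arrays (0.0507 to 0.0633). It held without neonatal wild-type replicates 1 or 3, neonatal APdE9 replicates 1 or 3, adult wild-type replicate 1 or adult APdE9 replicate 3. Quantile normalization also ended the calls of Col5a1 (0.0688) and Col8a1 (0.103).

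Between adult and neonatal astrocytes, fibrillar, type VI, FACIT and short-chain genes were among those called. These comparisons use the same arrays as the section comparisons and also carry the difference in culture method. On wild-type sections 13 collagen genes were higher (31%, against 14.9% of all genes) and 10 lower (23.8%, against 15.2%) in adult cells. On APdE9 sections 8 were higher (19%, against 11.7%) and 10 lower (23.8%, against 11.9%). The 2 age comparisons share no arrays. In both, 6 genes were higher (Col1a1, Col6a1, Col6a2, Col6a3, Col8a2 and Col10a1) and 6 lower (Col2a1, Col4a6, Col9a1, Col14a1, Col23a1 and Col27a1). Col9a3 was called in opposite directions. How many of all genes were called alike in both was not counted, so these numbers have no baseline. The collagen medians, 0.04 and -0.01, were close to those of all genes, 0.01 and 0.05.

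**Figure D5:**
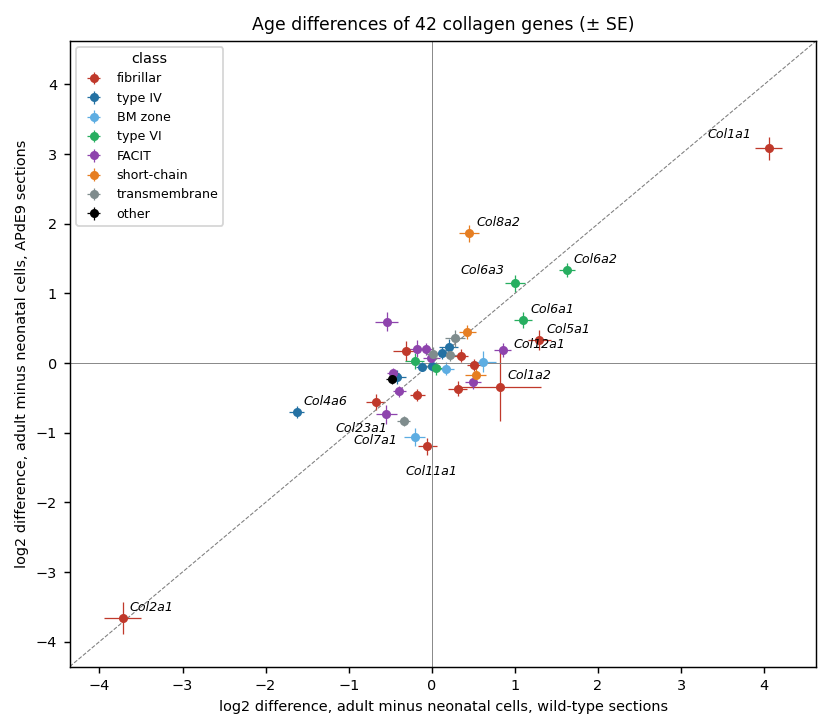
Age difference (adult minus neonatal astrocytes, log2 ± SE) of each collagen gene on wild-type (horizontal) and APdE9 (vertical) sections, coloured by class; the dashed line marks equal differences. Col1a1 lies at 4.06 and 3.08, Col2a1 at -3.72 and -3.66, and Col8a2 and Col11a1 lie off the line.

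Col1a1 and Col2a1 had the largest age differences of the collagen genes, in opposite directions. Col1a1 was higher in adult cells by 4.06 ± 0.16 on wild-type sections (adjusted p = 2.02e-09, 16.6-fold) and by 3.08 ± 0.16 on APdE9 sections (adjusted p = 3.4e-08, 8.46-fold). Col2a1 measured 2.02, 2.29 and 2.55 in neonatal and -1.27, -1.73 and -1.30 in adult cells on wild-type sections. On APdE9 sections Col2a1 measured 1.27, 1.79 and 1.52 and -1.88, -1.83 and -2.68. All neonatal arrays of Col2a1 were above all adult arrays. It fell by 3.72 (SE 0.23, adjusted p = 8.49e-08) and 3.66 (SE 0.23, adjusted p = 1.38e-07).

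The 3 classical type VI chains were higher in adult cells on both kinds of section. Col6a2 measured -0.79, -0.81 and -0.72 in neonatal and 0.85, 0.86 and 0.83 in adult cells on wild-type sections, a rise of 1.62 ± 0.10 (adjusted p = 6.39e-08). On APdE9 sections it measured -0.90, -0.73 and -0.51 and 0.51, 0.71 and 0.64, a rise of 1.34 ± 0.10 (adjusted p = 5e-07). No adult array of Col6a2 overlapped a neonatal one. Col6a1 rose by 1.10 ± 0.11 and 0.62 ± 0.11, and Col6a3 by 1.00 ± 0.12 and 1.14 ± 0.12, on wild-type and APdE9 sections (adjusted p at most 0.00114). The alternative chains Col6a4 and Col6a5 did not pass on either section.

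Col5a1 and Col5a2 passed the age test on wild-type sections but not on APdE9 sections. Col5a1 rose by 1.30 ± 0.14 there (adjusted p = 1.45e-05) against 0.33 ± 0.14 on APdE9 sections (0.119). Col5a2 rose by 0.51 ± 0.09 (0.000854) against -0.03 ± 0.09 (0.87). The difference between these age effects is the same quantity as the difference between section effects given above, and was called for both genes. Col11a1 differed by -0.05 ± 0.12 on wild-type sections and fell by 1.20 (SE 0.12, adjusted p = 7.29e-06) on APdE9 sections. Col3a1 differed by 0.31 ± 0.11 (0.0544) and fell by 0.37 (SE 0.11, 0.0324) on APdE9 sections. The last call was lost without neonatal APdE9 replicates 2 (0.0858) or 3 (0.1) or adult APdE9 replicates 1 (0.119) or 2 (0.0865).

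Among the remaining fibrillar chains, Col27a1, of developing cartilage, fell by 0.68 (SE 0.11, adjusted p = 0.000562) and 0.56 (SE 0.11, adjusted p = 0.00288). Col24a1 rose by 0.35 ± 0.09 on wild-type sections (adjusted p = 0.0106), and Col5a3 fell by 0.46 (SE 0.09, adjusted p = 0.00218) on APdE9 sections.

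Among type IV chains, Col4a6 was called with age on both kinds of section. It fell by 1.63 (SE 0.09, adjusted p = 2.67e-08) on wild-type and by 0.70 (SE 0.09, adjusted p = 6.81e-05) on APdE9 sections. Its adult arrays measured -0.59, -0.56 and -0.58 and -0.23, -0.49 and -0.43. Col4a5, its neighbour, differed by -0.12 ± 0.07 and -0.05 ± 0.07 and did not pass. Col4a4 fell by 0.42 (SE 0.10, adjusted p = 0.00742) on wild-type sections, with probe sets from -0.70 to 0.00. Col4a1 and Col4a2 differed by 0.13 ± 0.09 and 0.20 ± 0.12 on wild-type sections. Of the basement membrane zone chains, Col15a1 rose by 0.62 ± 0.15 on wild-type sections (adjusted p = 0.00741) and Col7a1 fell by 1.06 (SE 0.13, adjusted p = 5.51e-05) on APdE9 sections.

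All 3 short-chain genes were higher in adult cells on wild-type sections, Col8a1 by 0.53 ± 0.12, Col8a2 by 0.45 ± 0.12 and Col10a1 by 0.42 ± 0.10 (adjusted p at most 0.0103). On APdE9 sections Col8a2 rose by 1.86 ± 0.12 (adjusted p = 1.41e-07) and Col10a1 by 0.44 ± 0.10 (0.00724), while Col8a1 differed by -0.18 ± 0.12 (0.356). Among FACIT chains, Col12a1 rose by 0.85 ± 0.10 and Col16a1 by 0.50 ± 0.10 on wild-type sections (adjusted p = 2.75e-05 and 0.00167). On APdE9 sections Col12a1 differed by 0.18 ± 0.10 and Col16a1 by -0.27 ± 0.10 (adjusted p = 0.219 and 0.0631). Paired by replicate number, which the arrays on APdE9 sections bore out, Col16a1 was called there (adjusted p = 0.0455). Col9a3 measured 0.22, 0.17 and 0.11 in neonatal cells on wild-type sections and 0.11, -0.21 and -0.33 on APdE9 sections. It fell with age by 0.54 (SE 0.14, adjusted p = 0.00942) on the former and rose by 0.59 ± 0.14 (0.00714) on the latter.

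Col9a1 fell with age by 0.55 and 0.74 (SE 0.13, adjusted p = 0.00688 and 0.00121), again through 1 of its 2 probe sets (22.9% and 16.4% of all probe sets were called in these comparisons), and Col14a1 by 0.39 and 0.40 (SE 0.08, adjusted p = 0.00188 and 0.00201). For Col14a1, 1 of 3 probe sets was called lower on each kind of section. Its probe sets ranged from -0.78 to -0.05 on wild-type and from -0.87 to -0.13 on APdE9 sections. Col23a1 fell by 0.34 and 0.83 (SE 0.08, adjusted p = 0.00432 and 4.39e-06). Col22a1, a collagen of tissue junctions, and Col26a1 fell by 0.47 each on wild-type sections (adjusted p = 0.000367 and 0.000631). The 3 probe sets of Col22a1 ranged from -0.97 to -0.11, with 2 called. The 2 of Col26a1 disagreed, at -0.94 and -0.01, with 1 called. Col17a1, the transmembrane collagen of hemidesmosomes, rose by 0.36 ± 0.12 on APdE9 sections (adjusted p = 0.0478). That call was lost for 8 of the 12 left-out arrays (0.0597 to 0.169) and held without neonatal wild-type replicates 1 or 3, neonatal APdE9 replicate 1 or adult APdE9 replicate 2. All 23 collagen calls on wild-type sections held for each left-out array.

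Collagen chains are hydroxylated, glycosylated and folded in the endoplasmic reticulum, and 19 of 20 listed enzymes and chaperones for these steps were measured. On APdE9 sections 1 fell in neonatal cells, the prolyl hydroxylase subunit P4ha3 (-0.72 ± 0.12, adjusted p = 0.00525). That is 5.26% of the list, against 2.55% of all genes. In adult cells 3 fell (15.8%, against 9.4%) and 1 rose (5.26%, against 8.26%). P4ha2, another prolyl hydroxylase subunit, changed by -1.05 ± 0.17 (0.000986), Creb3l1, a factor that activates Col1a1 transcription in bone, by -0.98 ± 0.17 (0.00147), the collagen galactosyltransferase Colgalt1 by -0.48 ± 0.08 (0.00124) and the prolyl 3-hydroxylase P3h1 by 0.40 ± 0.09 (0.0076). The list's medians were -0.06 in neonatal and -0.15 in adult cells. With age 5 rose (26.3%, against 14.9% of all genes) and 6 fell (31.6%, against 15.2%) on wild-type sections. On APdE9 sections 3 rose (15.8%, against 11.7%) and 7 fell (36.8%, against 11.9%). P3h2, which modifies type IV collagen, fell most, by 2.55 (SE 0.13) and 2.20 (SE 0.13).

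After secretion, procollagens are trimmed and fibrils are cross-linked, and 11 of 14 listed genes for these steps were measured. In adult cells 7 of the 11 fell on APdE9 sections (63.6%, against 9.4% of all genes) and 1 rose (9.09%, against 8.26%). The list median was -0.57 (all genes 0.05). Tll1, a tolloid proteinase that trims procollagen, changed by -2.22 ± 0.12 (adjusted p = 2.16e-07), and the cross-linking enzymes Lox and Tgm2 by -1.42 ± 0.14 (2.55e-05) and -1.21 ± 0.12 (2.08e-05). Pcolce2, an enhancer of that trimming, rose by 1.93 ± 0.17 (8.58e-06). In neonatal cells only Tgm2 was called (9.09% of the list, against 2.55% of all genes lower), at -0.47 ± 0.12 (0.0472). The difference between ages was called lower for 6 of the 11 (54.5%, against 4.88%) and higher for 1 (9.09%, against 5.19%). With age 5 rose (45.5%, against 14.9%) and 3 fell (27.3%, against 15.2%) on wild-type sections, led by Tll1 at 3.46 ± 0.12 and Pcolce2 at -2.25 ± 0.17. On APdE9 sections Tll1 rose (1.62 ± 0.12) and Tgm2 (-2.74 ± 0.12) and Lox (-0.64 ± 0.14) fell, or 9.09% and 18.2% of the list, against 11.7% and 11.9% of all genes.

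Markers of other collagen-producing cells also moved in these comparisons. Of 11 mural cell markers, 3 fell (27.3%, against 9.4% of all genes) and 1 rose (9.09%, against 8.26%) in adult cells on APdE9 sections. Tagln fell by 3.37, Cnn1 fell by 2.70 and Acta2 fell by 1.38, all contractile genes of smooth muscle, and Anpep rose by 1.04 ± 0.15. Myh11 and Des, on the same list, differed by 0.03 ± 0.08 and 0.07 ± 0.11 and did not pass. The array means of that list were 0.35 to 0.41 on wild-type and -0.23 to -0.15 on APdE9 sections. Of 12 fibroblast and meningeal markers, 16.7% were called in each direction: 2 rose (Igf2 by 1.45 ± 0.18 and Dcn by 0.53 ± 0.10) and 2 fell (Fbln1 by 1.42 and Lum by 0.70), with array means of -0.15 to -0.02 and -0.22 to -0.02. In neonatal cells 2 fibroblast markers rose (Lum and Dcn) and Fbln1 fell, and 2 mural markers rose. These were 16.7%, 8.33% and 18.2% of their lists, against 1.21% of all genes higher and 2.55% lower. Of 9 endothelial markers, 0 were called by limma in adult cells (2 at an unadjusted p under 0.05) and Emcn fell in neonatal cells (-1.10 ± 0.22). Their part in the collagen differences was not tested, and with levels removed it could not be read whether any marker was absent.

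Astrocyte and microglia markers moved with age. Array means of 12 astrocyte markers were 0.91 to 0.97 and 0.45 to 0.59 in neonatal cells on wild-type and APdE9 sections, and -0.64 to -0.62 and -0.66 to -0.63 in adult cells. With age 9 of the 12 fell (75%, against 15.2% of all genes) and 2 rose (16.7%, against 14.9%) on wild-type sections, and 7 fell (58.3%, against 11.9%) and 1 rose (8.33%, against 11.7%) on APdE9 sections. On wild-type sections Gfap and Aldoc differed by -4.24 ± 0.11 and -4.97 ± 0.08, while S100b and Gja1 rose by 0.58 ± 0.12 and 0.35 ± 0.09. On APdE9 against wild-type sections 6 astrocyte markers fell in neonatal cells (50%, against 2.55%), and in adult cells 5 rose (41.7%, against 8.26%) and 3 fell (25%, against 9.4%). Array means of 13 microglia markers were 1.37 to 1.93 and 1.87 to 2.05 in neonatal cells and -2.08 to -1.83 and -1.53 to -1.47 in adult cells, although the labels describe both cultures as almost free of microglia. With age 12 of the 13 fell on both kinds of section (92.3%), and 1 rose on wild-type sections. In adult cells on APdE9 sections Cd68, C1qc, Tyrobp, Itgam and C1qa rose, by 0.48 to 1.72, and Tmem119 fell (-0.85 ± 0.13). The other microglia markers were not called there, where 8.26% of all genes rose and 9.4% fell. In neonatal cells Aif1 (0.87 ± 0.20) and Cd68 (0.83 ± 0.18) rose and no microglia marker fell, where 1.21% of all genes rose and 2.55% fell. Fibroblast markers were mixed with age on wild-type sections, with 4 higher (Lum, Fbln1, Twist1 and Pdgfra) and 4 lower (33.3% in each direction, against 14.9% and 15.2% of all genes), led by Aldh1a2 at -4.68 ± 0.24. On APdE9 sections 3 were higher (25%, against 11.7%) and 2 lower (16.7%, against 11.9%). In adult cells on APdE9 sections 4 of 8 oligodendrocyte lineage markers were higher (50%, against 8.26%) and 2 of 8 neuron markers lower (25%, against 9.4%). The part of these shifts in the collagen differences was not tested.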

How the data were processed

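Expression was measured on Affymetrix mouse whole-genome arrays, 12 in all and 3 for each of 4 groups. The deposited values of the authors are log2 signals by RMA, per the submitters' processing notes; the log base was taken as 2 because RMA returns log2, and the version was not given in the sources used here. On testing, the median over the 12 arrays was 0 (within 1e-06) for 45095 of 45095 complete probe sets, so absolute levels are lost. In 4 columns, treated as a deposited score with no fixed scale, 6 values exceeded 100 in size and were set to missing; 0 lay in collagen probe sets. Array medians ran from -0.0384 to 0.0342. With 3 arrays a group, the number of arrays limits the precision.

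Of 45101 probe sets, 64 controls were left out. In the platform annotation 34945 had 1 gene, 932 several and 9160 none; 34741 matched RefSeq. Probe sets of a gene were averaged. A model with a mean for each group was fitted to the 12 arrays (limma 3.58.1, R 4.3.3; lmFit and eBayes), with Benjamini-Hochberg adjustment over 18193 genes. Probe sets were also fitted singly over 45037. The script was tested on simulated data. Members, classes and lists were chosen with earlier results of these data known. Collagen genes called in at least 1 comparison are described in full; of other lists up to 4 called genes with the largest differences were named, and any marker could be named.

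Replicate numbers were taken to pair the arrays of the neonatal section comparison (correlations of 0.305, 0.147 and 0.519 for same-numbered arrays). The same was done for the age comparison on APdE9 sections (0.46, 0.206 and 0.473), since all exceeded 0.1. In the adult section comparison and the age comparison on wild-type sections only replicate 2 fell short. The labels give no shared litter or batch. No scan date or slide was used here. As alternatives, arrays were quantile-normalized, centred on their median or weighted; the fit was run with a replicate block, robust moderation, the arrays compared alone or those numbered 1 and 2; probe sets were taken singly or by their median; genes of low spread were filtered; thresholds of 0.01 and 0.1 were used; lost decimal points were put back; and every array was left out in turn.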

Additional observations from a re-analysis of the deposited data

Results flagged for a closer look

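For 13 collagen genes the section difference itself differed between adult and neonatal astrocytes by the test of that difference (limma, adjusted p under 0.05). The adult minus neonatal section difference was lower for Col11a1 (-1.14), Col1a1 (-0.97), Col5a1 (-0.97), Col7a1 (-0.86), Col16a1 (-0.77), Col8a1 (-0.70), Col3a1 (-0.68), Col12a1 (-0.67), Col5a2 (-0.54) and Col23a1 (-0.49). It was higher for Col8a2 (1.41), Col9a3 (1.14) and Col4a6 (0.93). Of these 13 calls, 5 held under all 23 alternatives: Col11a1, Col16a1, Col8a2, Col9a3 and Col4a6. Quantile normalization ended calls that included Col1a1 (-0.39, limma adjusted p = 0.603), Col5a1 (0.0688) and Col8a1 (0.103). Ages also differ in culture method, and the part of either was not tested.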

How the results depend on the processing

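Of 79 collagen calls over 5 comparisons, 51 held under each alternative run on genes (24, or 23 for the difference between ages, which already uses all arrays) and 0 turned direction; of 131 uncalled pairs, 30 were called under some alternative. In neonatal cells the section counts moved most: 2 genes were higher and 12 lower with array weights, and 1 was lower with only the arrays compared, with arrays numbered 1 and 2 only, and at a threshold of 0.01. With only the arrays compared, Col1a1 (0.0841) and Col11a1 (0.0885) were among the 6 neonatal calls lost. In adult cells 5 genes were higher with a replicate block. For the difference between ages, 5 genes had at least 1 probe set called higher when probe sets were fitted singly, and 3 genes were lower at 0.01. With 1 array left out in turn, neonatal counts were 1 to 1 higher and 1 to 7 lower, adult counts 2 to 3 and 11 to 16, and those of the difference between ages 3 to 4 and 7 to 12. The age counts were 13 to 15 higher and 10 to 10 lower on wild-type, and 7 to 8 and 9 to 12 on APdE9 sections. The causes were not tested.

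The replicate block lost none of the 79 calls and added 12. Where the numbers paired the arrays it changed no neonatal section call, and with age on APdE9 sections it added Col16a1. In the adult section comparison (same-numbered correlations of 0.348, -0.147 and 0.496) and the age comparison on wild-type sections (0.404, 0.0247 and 0.405) the arrays share only a number. There the block called Col1a2 (adjusted p = 8.17e-05 and 0.000512), as in the difference between ages (0.00228). With it, 23.2% and 34.2% of all genes were called. Loss of levels, arrays that number 3 a group and probe sets that disagree (among them Col1a2, Col9a1, Col12a1, Col14a1 and Col26a1) limit what can be read.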

Other observations

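Cell-surface receptors of collagen and the partners of type IV collagen in basement membranes were measured on the same arrays. Of 9 measured receptor genes, 0 passed the limma test in neonatal cells on APdE9 sections (2 at an unadjusted p under 0.05), where 1.21% of all genes rose and 2.55% fell. In adult cells 2 rose and 2 fell (22.2% each, against 8.26% and 9.4% of all genes). The integrin chains Itga1, of a receptor for type IV collagen, and Itgb1, its partner, changed by -1.11 ± 0.11 (adjusted p = 2.27e-05) and -0.59 ± 0.09 (0.000721). Itga10 and Itga2 changed by 0.72 ± 0.18 (0.0132) and 0.41 ± 0.10 (0.0114). With age 4 rose (44.4%, against 14.9%) and 3 fell (33.3%, against 15.2%) on wild-type sections, among them the collagen uptake receptor Mrc2 (0.85 ± 0.11) and Lair1, an inhibitory receptor of immune cells (-1.21 ± 0.10). On APdE9 sections 3 rose (33.3%, against 11.7%) and 2 fell (22.2%, against 11.9%).

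Of 15 measured basement membrane partners, 2 fell in neonatal cells on APdE9 sections (13.3%, against 2.55% of all genes), the laminin chains Lamb2 (-1.02 ± 0.13, adjusted p = 0.00132) and Lama2 (-0.72 ± 0.14, 0.0143). In adult cells 6 fell (40%, against 9.4%) and 2 rose (13.3%, against 8.26%). Nid2, which links laminin to type IV collagen, changed by -1.24 ± 0.16 (0.000156), and Lama1, Lama2 and Lama4 by -0.92 ± 0.18, -0.82 ± 0.14 and -0.76 ± 0.13 (adjusted p at most 0.00393). With age 5 rose (33.3%, against 14.9%) and 4 fell (26.7%, against 15.2%) on wild-type sections. On APdE9 sections 2 rose (13.3%, against 11.7%) and 4 fell (26.7%, against 11.9%). Nid1 rose on both, by 1.35 ± 0.17 and 1.62 ± 0.17.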
